A study of Mus musculus with 12 samples.

Results

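The peaks described here lay wholly inside coding sequence. They were the listed rows whose place in the transcript was given as coding sequence alone, 308 of the 1043 rows in the authors' deposited tables of m6A peaks that differed between young and senescent mouse embryonic fibroblasts. Of these rows, 217 were higher and 91 were lower in senescent cells. A row is 1 peak on 1 transcript, so that a peak can be listed several times. Rows of 1 direction that shared at least 1 nt of exon block on a strand were merged, which left 192 sites, 133 higher and 59 lower. Among all places of the transcript there were 657 sites. The 192 coding-only sites lay in 184 genes, of which 126 had a higher and 59 a lower coding-only site, 1 gene counting in both.

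Mouse embryonic fibroblasts (MEFs) are primary cells taken from mouse embryos, and their division ceases with serial passage. Total RNA of passage 3 (P3, young) and passage 9 (P9, senescent) MEFs was fragmented and pulled down with an m6A antibody (MeRIP), and each passage had 3 MeRIP and 3 input libraries, 12 in all. No genotype, strain or treatment other than passage distinguished the groups in the labels. The deposited tables name the groups Treatment and Control, and they were taken as P9 and P3 since the 840 higher and 203 lower rows of the whole tables match the peak numbers known for senescent against young MEFs. No value per library was used here, so that depth and the spread between cultures are unknown and the passages were not tested against each other. Every listed peak had already passed a threshold on fold and p-value, and peaks that did not differ are not in the tables.

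N6-methyladenosine (m6A) is placed on mRNA by a nuclear methyltransferase complex with METTL3 as its catalytic subunit, within a short consensus written DRACH, where D is A, G or T, R is A or G and H is A, C or T. In mammalian mRNA the mark is known to gather in long internal exons and around stop codons. Splicing leaves exon junction complexes near exon ends, and stretches close to junctions are known to carry less m6A. A peak inside coding sequence may lie in 1 exon, which gives a single block, or run across exon junctions, which gives several blocks separated by introns on the genome.

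Sequence could be shown for 2 sites, both of which RefSeq's gene start windows on GRCm38.p6 happened to overlap. They are shown because they stand on opposite sides of the comparison. Both were single-block and are printed on the strand of the transcript. Tab3, an adaptor of the kinase TAK1, had a higher site of 928 nt on chromosome X, and its first 72 nt lay at chrX:85614407-85614478 (mm10 coordinates, + strand). Rnf19b, a RING-type ubiquitin ligase, had a lower site of 239 nt on chromosome 4, and its first 103 nt lay at chr4:129058301-129058403 (+ strand). Capitals mark matches to DRACH on the strand of the transcript.
Tab3: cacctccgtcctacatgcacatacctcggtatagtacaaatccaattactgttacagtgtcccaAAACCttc
Rnf19b: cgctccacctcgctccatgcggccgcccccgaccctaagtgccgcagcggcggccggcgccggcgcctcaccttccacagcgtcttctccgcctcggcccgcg
The Tab3 stretch held 1 match to DRACH and none to GGAC, and the Rnf19b stretch held neither. Among 32851 RefSeq windows read over the same stretch and strand, 72.2% held DRACH and 22.8% held GGAC for the length and place of the Tab3 stretch, and 83.3% and 31.2% for those of the Rnf19b stretch. These stretches were 7.76% and 43.1% of the 2 sites, and a missing match says only that these letters were not in this window. Both windows belonged to genes on the other strand (Gm39523 and 1700086P04Rik). The library kit keeps strand, but the sources used here do not say whether peaks were found by strand.

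Single-block and multi-block sites were set against the direction of change first. The 90 single-block sites were mostly higher in P9 MEFs, 72 of them (80.0%, 95% Clopper-Pearson interval 70.2 to 87.7), against 61 of the 102 multi-block sites (59.8%, 49.6 to 69.4). Seen the other way, 61 of 133 higher sites crossed an exon junction (45.9%, 37.2 to 54.7), and 41 of 59 lower sites did (69.5%, 56.1 to 80.8). The intervals of the higher and lower shares did not overlap. These intervals cover the counting of listed sites only, not the spread between cultures.

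The classes with 1 and 2 blocks differed most between the directions. A single block was found in 54.1% of higher and 30.5% of lower sites, 2 blocks in 19.5% and 39.0%, and 3 blocks in 15.8% and 18.6%. Sites with 4 or more blocks made up 10.5% of the higher (14 of 133) and 11.9% of the lower (7 of 59), close to each other. When the rows were counted in place of sites, 49.8% of the 217 higher and 74.7% of the 91 lower rows were multi-block.

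**Figure D1:**
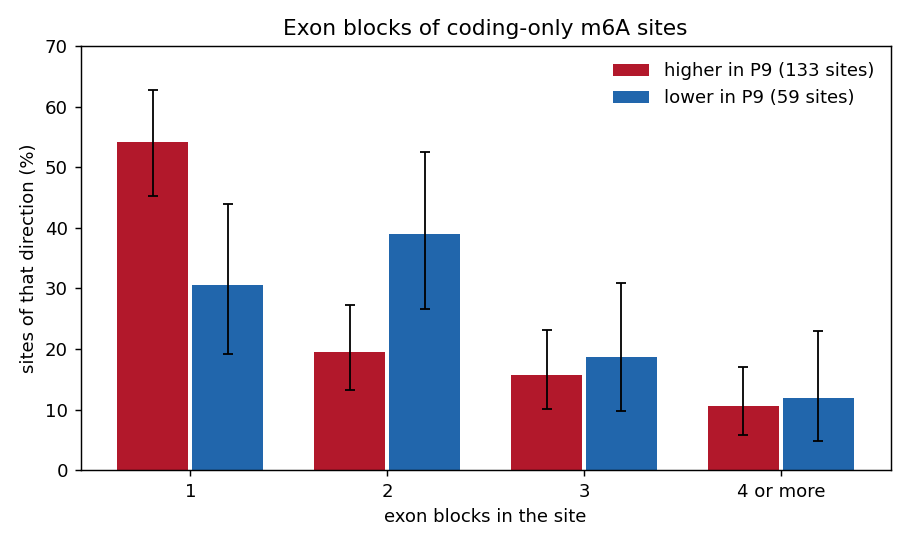
Share of coding-only sites (y axis, percent of the sites of that direction) by number of exon blocks (x axis), for 133 sites higher and 59 lower in P9 MEFs; bars are shares and error lines 95% Clopper-Pearson intervals. Single-block sites made up 54.1% of the higher and 30.5% of the lower sites.

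Some multi-block sites, in both directions, reached past a junction by a short overhang only. Sirt1, the NAD-dependent deacetylase, had a lower site on chromosome 10 whose blocks measured 288 and 12 nt. Rab3gap2, a regulator of the vesicle GTPase RAB3, had a lower site with blocks of 54 and 6 nt. Cobll1 had a higher site with blocks of 534 and 6 nt, and it was chosen after its values were seen. In 13 of the 41 lower multi-block sites (31.7%, 18.1 to 48.1) and 10 of the 61 higher ones (16.4%, 8.15 to 28.1), at most 30 nt lay outside the largest block. Counting as multi-block only the sites with more than 30 nt outside it gave 51 of 133 higher sites (38.3%, 30.1 to 47.2) and 28 of 59 lower sites (47.5%, 34.3 to 60.9), and these intervals overlapped.

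The sites with most blocks were few. Ccdc18 had a higher site of 10 blocks that covered 1319 nt over 28742 nt of chromosome 5 (108191961 to 108220702), with a largest block of 214 nt. Kif21a, a plus-end directed kinesin, had a higher site of 7 blocks and 720 nt, and Tnik, a kinase of the Wnt pathway, a lower one of 7 blocks and 871 nt. Syne2, which encodes the nuclear envelope linker nesprin-2, had a higher site of 5 blocks of 51 to 159 nt. Tnnt1, slow skeletal muscle troponin T, had a higher site of 5 blocks that covered 355 nt. Thus the tables held sites made of many ordinary exons in both directions.

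**Figure D2:**
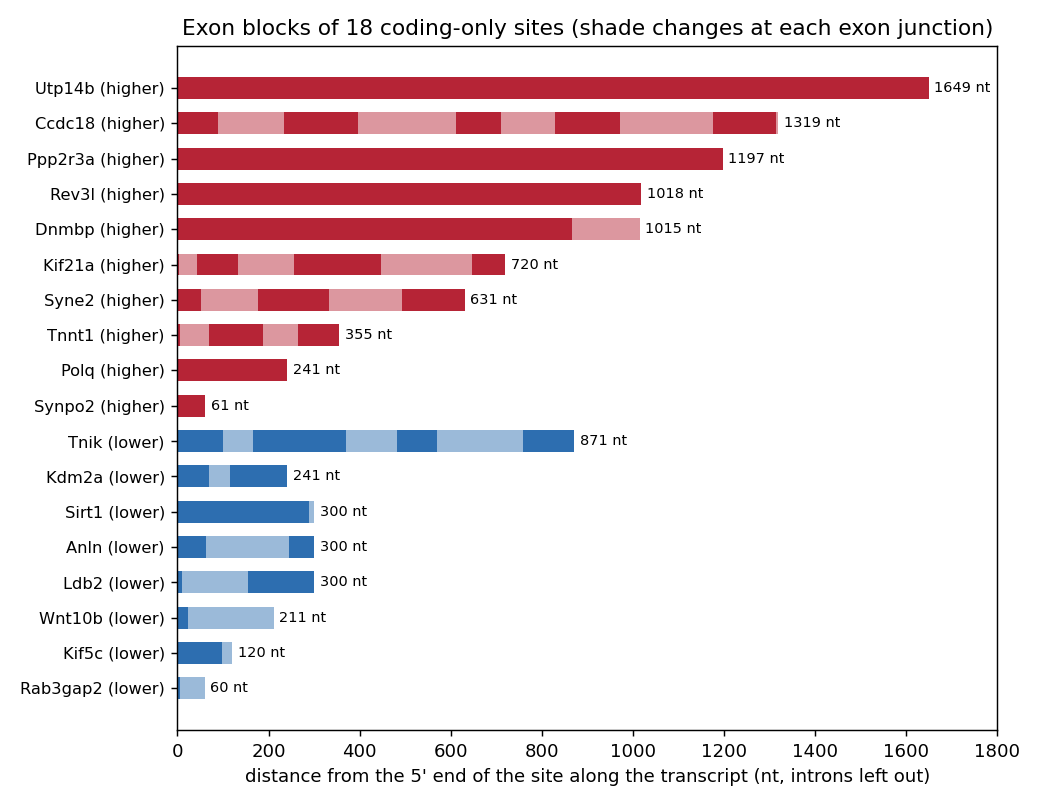
Exon blocks of 18 coding-only sites drawn to scale from the 5' end of each site (x axis, nt along the transcript with introns left out); shades alternate at each exon junction, red is higher and blue lower in P9 MEFs, and the number beside each bar is the exonic length. Utp14b (1649 nt) and Ppp2r3a (1197 nt) were unbroken, whereas Ccdc18 (1319 nt) ran over 10 blocks.

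The blocks that lay between 2 other blocks of a site are whole exons, and they give a scale for the exons these sites crossed. An exon longer than its site cannot be an inner block, so this scale leaves out long exons. There were 61 such inner blocks in higher sites (median 117 nt, 34 to 247) and 29 in lower sites (median 102 nt, 33 to 221). A block longer than 247 nt, and so longer than every inner block, was present in 69 of 133 higher sites (51.9%, 43.1 to 60.6) and in 9 of 59 lower sites (15.3%, 7.22 to 27.0). Blocks longer than 500 nt occurred in 26 higher sites (19.5%) and in 0 of 59 lower sites (upper limit of the interval 6.06%). The median largest block was 269 nt in higher and 158 nt in lower sites. Higher coding-only sites thus held a block longer than 247 nt more often than lower ones did, on counting intervals that did not overlap. A block cannot be longer than its site, and the median exonic length was 331 nt in higher and 211 nt in lower sites. These counts therefore do not separate the length of exon stretches from the length of the sites.

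The gaps between neighbouring blocks are the introns removed from the transcript. The 122 gaps within higher sites had a median of 1712.5 nt (interquartile range 670.0 to 4301.5) and the 70 within lower sites a median of 1379 nt (568.75 to 3427.75). The widest, 66819 nt, lay in a higher site and the widest in a lower site was 32455 nt. On the genome the multi-block sites therefore spanned a median of 4096 nt when higher and 2588 nt when lower, while the RNA they covered had medians of 299 and 211 nt.

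Exonic length, the sum of the blocks, was greater in higher than in lower sites. Higher sites had a median of 331 nt (interquartile range 237 to 477, 61 to 1649) and lower sites a median of 211 nt (179 to 299, 60 to 871). Within the single-block sites, the medians were 361 nt for 72 higher and 224.5 nt for 18 lower sites. Within the multi-block sites they were 299 nt for 61 higher and 211 nt for 41 lower sites. The lengths of the lower single-block sites ran from 150 to 301 nt. Of the 72 higher single-block sites, 45 (62.5%) were longer than 301 nt. This cut was the longest lower single-block site, so that no lower one could exceed it. The 95% intervals of the medians of higher and lower sites did not overlap in the single-block class (330 to 420 and 181 to 270 nt) and overlapped in the multi-block class (241 to 376 and 178 to 270 nt). Within each direction, a difference in length between the block classes was not resolved, and for lower sites its order turned when the longest listed row stood for a site (224.5 nt single-block, 235 nt multi-block).

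**Figure D3:**
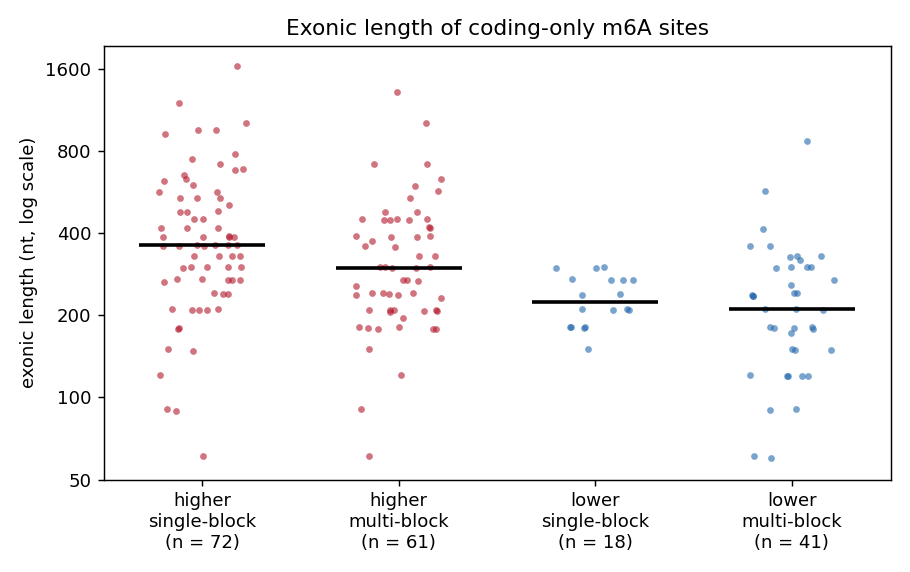
Exonic length of each coding-only site (y axis, nt, log scale) by direction and block class; points are sites, spread sideways at random, and black lines are medians of 361, 299, 224.5 and 211 nt from left to right.

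Grouped by length, the share of higher sites went up from the shortest to the longest. Among 21 sites of 150 nt or less, 9 were higher in P9 MEFs (42.9%, 21.8 to 66.0). Of the 85 sites over 150 and up to 300 nt, 48 were higher (56.5%, 45.3 to 67.2). Of the 50 sites over 300 and up to 450 nt, 42 were higher (84.0%, 70.9 to 92.8), and of the 36 longer ones 34 (94.4%, 81.3 to 99.3). The 2 lower sites over 450 nt were those of Tnik (871 nt) and Cntrl (570 nt), a centriole protein gene outside the naming rule. Among sites of 300 nt or less, the multi-block share was 57.9% of 57 higher (44.1 to 70.9) and 65.3% of 49 lower sites (50.4 to 78.3), which overlapped. Above 300 nt, it was 36.8% of 76 higher (26.1 to 48.7) and 9 of 10 lower sites (90.0%, 55.5 to 99.7).

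**Figure D4:**
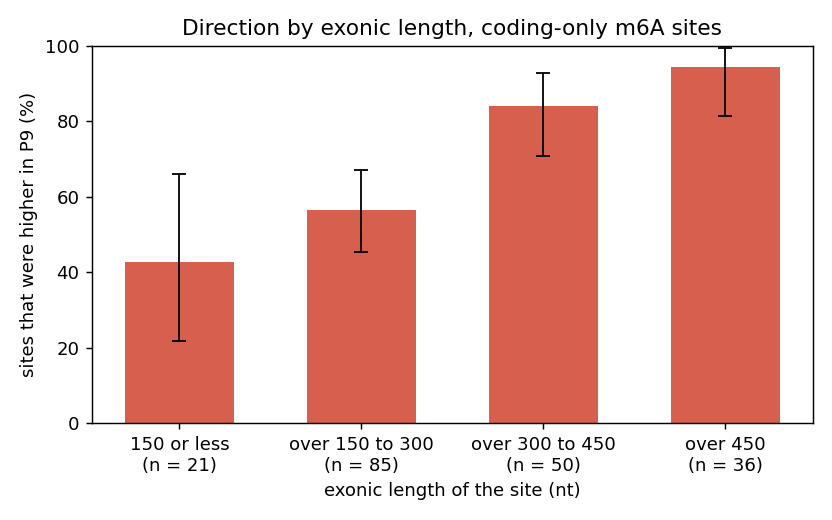
Share of coding-only sites that were higher in P9 MEFs (y axis, percent) by exonic length (x axis, nt); bars are shares of 21, 85, 50 and 36 sites and error lines 95% Clopper-Pearson intervals. The share was 42.9% among sites of 150 nt or less and 94.4% among those over 450 nt.

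The longest and shortest sites illustrate this range. Utp14b, a copy of a ribosome biogenesis gene, had the longest site, a single block of 1649 nt on chromosome 1 from 78665008 to 78666656. This site was higher and took up 44.7% of a transcript of 3685 nt. Ppp2r3a, a regulatory subunit of the phosphatase PP2A, had 1197 nt in 1 block, and Rev3l, the catalytic subunit of DNA polymerase zeta, 1018 nt in 1 block. Dnmbp, a scaffold that activates CDC42, had 1015 nt in 2 blocks, of which the larger had 867 nt. All of these were higher in P9 MEFs. At the other end, the sites of Rab3gap2 (lower, 60 nt), Synpo2 (higher, 61 nt), Uso1 (higher, 61 nt), Hcfc1 (lower, 61 nt) and Mum1 (higher, 89 nt) were in both directions. Synpo2 binds actin, Uso1 tethers vesicles at the Golgi and Hcfc1 is a chromatin coregulator.

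Lengths fell on steps. In 148 of the 192 sites (77.1%, 70.5 to 82.8) the exonic length was within 1 nt of a multiple of 30 nt, in 100 of 133 higher and 48 of 59 lower sites. Most site lengths therefore came in steps of about 30 nt, and a difference in length between 2 sites smaller than that step cannot be read. The positions of peak ends were not examined in this way.

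Transcript length is that of the transcript on which a site was listed. Its median was 4233 nt for higher sites (interquartile range 2562 to 6786) and 3223 nt for lower sites (2125 to 4591). Single-block sites lay on longer transcripts than multi-block sites, with medians of 4631.5 and 3707 nt among higher sites and 3606 and 3024 nt among lower sites. The 95% intervals of these 4 medians overlapped within each direction, 3830 to 5769 and 2577 to 4917 nt for higher and 2414 to 4758 and 2217 to 4151 nt for lower sites. A difference in transcript length between the block classes was therefore not resolved.

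The longest transcripts included those of giant structural proteins. Syne1, nesprin-1, carried a higher site of 450 nt in 3 blocks on a transcript of 27908 nt. Dst, the cytoskeletal linker dystonin, carried one of 361 nt in 1 block on 23251 nt, and Syne2 one of 631 nt on 21690 nt. The ubiquitin ligase gene Herc1 had a lower site of 151 nt on 15153 nt, and the kinesin gene Stard9 a higher site of 480 nt on 15102 nt. In these transcripts the site was a small stretch, for Dst 1.55% of the RNA.

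Some sites were listed on short transcript models. The shortest were those of Ndufaf2 (250 nt, higher), a complex I assembly factor, Kif2a (288 nt, lower), a microtubule-depolymerising kinesin, and Usp19 (384 nt, lower), a deubiquitinase. Rab15 (higher) and Smn1 (lower) followed with 485 nt each. For 9 of the 192 sites 50% or more of the listed transcript was inside the peak, up to 89.9% for Kif2a and 78.0% for Ndufaf2. For such sites the place label rests on a short model of the transcript. Over all sites, the peak covered a median of 8.02% of its transcript.

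The gene's RefSeq span on GRCm38.p6 gave the position of 186 of the 192 sites, 184 by symbol and 2 by an older symbol. The middle of the site lay nearer to the 3' end than to the 5' end of the span in 83 of 129 higher (64.3%, 55.4 to 72.6) and 40 of 57 lower sites (70.2%, 56.6 to 81.6). The median distance to the 3' end of the gene was 25342 nt for higher and 9888 nt for lower sites, with 95% intervals of 15962 to 29573 and 5820 to 24836 nt that overlapped. Sites near the 5' end were present too: the middle of the site lay within 0.795% of the span in Heca, 0.874% in Pcdhgb8, 0.994% in Fbxl17 and 1.05% in Rnf19b. Of these sites that of Pcdhgb8 was higher and the others lower. The next higher sites were those of Pcdhga4 (1.27%) and Pcdhga11 (1.77%). Apart from Heca and Pcdhgb8, these genes were chosen after their values were seen. Distances are genomic and include introns.

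In 68 of the 192 sites the tables gave several transcripts, 184 rows in all. The largest fold of such a site was at the median 1.02 times its smallest (interquartile range 1.01 to 1.10). In 11 sites the transcripts differed in the number of blocks, and in 4 of these some rows were single-block and some multi-block. A transcript that missed the threshold is not listed, so this is the spread among listed transcripts only.

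The place label depended on the transcript as well. In 12 of 133 higher and 5 of 59 lower sites, a row of the same direction with another place label overlapped the site. Among the higher ones were Erdr1, Knl1 and Zfp429, and among the lower ones Wnt10b, Ldb2, Stard10, Nectin3 and Ppp2r2d, some of them chosen after their values were seen. These stretches were coding on one transcript and reached a UTR on another. None of the 192 sites overlapped a row of the opposite direction.

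Some genes had several separate coding-only sites, and 6 of them had 2 higher sites each. Alms1, a centrosome protein gene, had sites of 150 and 480 nt with folds of 4.08 and 2.28, 48210 nt apart on the genome. Rev3l had sites of 1018 and 360 nt (folds 1.52 and 1.66) 1854 nt apart, and Plcl2, a phospholipase C-like protein without catalytic activity, sites of 481 and 271 nt (2.01 and 2.35) 898 nt apart. Tti1, a stabiliser of PI3K-related kinases, had sites of 180 and 389 nt (1.91 and 1.51) with 185 nt between them, and Dchs1, a large cadherin, sites of 300 and 420 nt (1.64 and 1.52) with 179 nt between them. BC067074 had sites of 781 and 954 nt (1.83 and 1.65). Sites of 1 gene share its RNA, so they are not independent of each other.

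Of the 184 genes, 7 also had a listed peak elsewhere that did not overlap their coding-only sites. In 4 of these 7 genes (Brwd1, Rapgef2, Tti1 and Upf1) it changed in the same direction. In Pacs2 and Sirt1 the coding-only site was lower and the other peak, in the 3'UTR or across the stop codon, was higher, and in Mecom the coding-only site was higher and the other peak lower. For Sirt1 the deposited folds were 0.483 for the coding-only site and 1.51 to 1.52 for the other peak. Brwd1, Rapgef2, Upf1, Pacs2 and Mecom were chosen after their values were seen.

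Among 91 genes of DNA damage response and repair, 6 had a coding-only site and all of those sites were higher, 6 of 7 being single-block. Over all 192 coding-only sites, 69.3% were higher and 46.9% single-block. They were Rev3l, Polq (DNA polymerase theta), Wrn (the RecQ helicase of Werner syndrome), Palb2 (the partner of BRCA2), Pms2 (mismatch repair) and Fanca (the Fanconi core complex). Their deposited folds were 1.52 and 1.66 for Rev3l, 4.56 for Polq, 1.92 for Wrn, 3.14 for Palb2, 1.76 for Pms2 and 1.57 for Fanca. The lists were drawn up with earlier results of these data known, genes without a differing peak are not in the tables, and no enrichment was computed.

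Of 152 chromatin and histone modifiers, 6 had a coding-only site, 5 of them lower, and all 6 sites were multi-block. Over all 192 coding-only sites, 59 were lower and 53.1% were multi-block. The lower ones were Pbrm1 (a PBAF subunit, fold 0.657), Kdm2a and Kdm4b (histone demethylases, 0.646 and 0.611), Hcfc1 (0.599) and Sirt1 (0.483). The higher one was Ep400, a chromatin remodeller, with a fold of 1.50. Genes outside the list that also act on chromatin went both ways. The meiotic methyltransferase gene Prdm9 (2.39) and the testis bromodomain gene Brdt (2.07), chosen after their values were seen, had higher sites. Zcwpw1, a histone methylation reader, had a lower one (0.301).

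Genes of the cell cycle and the cytoskeleton went both ways, beside 69.3% higher over all coding-only sites. Of 121 S phase and mitosis genes, Aspm (a spindle pole protein, fold 1.73), Cit (citron kinase, 2.04) and Espl1 (separase, 2.81) had higher sites, and Anln (anillin, 0.577) and Kif2a (0.652) lower ones. Of 115 cytoskeleton and motor genes, Dst (1.53), Kif21a (1.80) and Myo10 (1.52) had higher sites, and Ank2 (ankyrin-B, 0.230), Kif5c (a neuronal kinesin heavy chain, 0.164), Nav1 (0.653) and Nhs (an actin regulator, 0.0974) lower ones. Of these genes, Kif5c is best known from neurons.

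The remaining lists had few members, to be read beside the 69.3% of all coding-only sites that were higher. Of 61 senescence regulators, Pml (the scaffold of nuclear bodies, fold 1.50), Wrn (1.92) and the insulin receptor substrate Irs2 (1.62) had higher sites and Sirt1 a lower one. Irs2 was also the only one of 102 insulin, PI3K-Akt and Ras-MAPK genes, and its site was a single block of 301 nt. Of 105 extracellular matrix genes, the proteoglycan Vcan (1.56) and the protease Adamts12 (1.52) had higher single-block sites. Of 93 TGF-beta, BMP and Wnt genes, the ligand Wnt10b (0.0769) and the receptor Ror2 (0.645) had lower sites.

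In 4 lists no gene had a coding-only site: 63 SASP factors, 24 m6A writers, erasers and readers, 18 fibroblast markers and 42 markers of other cell types. For the last 3 of these lists no gene had a listed peak of any kind, and for SASP factors 3 genes did. Over the whole series, 633 genes had a listed peak and 184 a coding-only site. Genes without a differing peak are not listed, so an empty list is no result about its genes. A listed peak shows that a transcript was read and that its m6A signal differed, not how much of it there was, so the labelled cell type could not be checked from the levels of its markers.

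A group of zinc finger genes was seen after the values were known. Of 39 genes with a listed peak whose symbols start with Zfp or Zbtb, 14 had a coding-only site. Of these 14, 13 had a higher coding-only site and 1, Zfp112 (fold 0.337), a lower one, and 11 of the 14 sites were single-block, beside 69.3% higher and 46.9% single-block over all coding-only sites. Many such genes encode all their zinc fingers in a single long last exon. Their median exonic length was 405.5 nt, with 959 nt for Zfp945, 720 nt for Zfp273, 684 nt for Zbtb49 and 656 nt for Zfp429. Their deposited folds ran from 1.52 (Zfp142) to 3.97 (Zfp108) among the higher ones. These genes share related sequences, and fragments from near-identical copies may have been split among them, which was not tested. Protocadherin genes, which also have long first exons, gave 3 higher (Pcdhgb8, Pcdhga4 and Pcdhga11) and 1 lower site (Pcdhb21). Without zinc finger and protocadherin genes, 49.6% of higher and 71.9% of lower sites were multi-block, and the intervals (40.2 to 59.0 and 58.5 to 83.0) then overlapped. The difference between the 2 shares was 22.4 percentage points (5.93 to 36.9), close to the 23.6 points (7.60 to 37.9) of all coding-only sites.

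The deposited folds, each a linear ratio of P9 to P3, ran from 1.50 to 5.39 among the higher and from 0.0769 to 0.667 among the lower sites. Their medians were 1.75 in single-block and 1.73 in multi-block higher sites, and 0.528 and 0.626 in single-block and multi-block lower sites. A change of at least 2-fold was found in 24 of 72 single-block (33.3%, 22.7 to 45.4) and 15 of 61 multi-block higher sites (24.6%, 14.5 to 37.3). Among lower sites it was found in 8 of 18 single-block (44.4%, 21.5 to 69.2) and 7 of 41 multi-block sites (17.1%, 7.15 to 32.1). The intervals of the block classes overlapped in both directions. No test of these values was made, since the fold and its p-value are those of the authors' own comparison.

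The largest deposited folds among the higher sites were those of Synpo2 (5.39), Pcdhgb8 (4.99), Polq (4.56), Tnnt1 (4.53), Alms1 (4.08) and Zfp108 (3.97). They were followed by Gm20422 (3.41), Palb2 (3.14), 4930522L14Rik (3.05), Zfp583 (3.03) and Engase, a cytosolic enzyme that trims free N-glycans (2.93). The smallest among the lower sites were those of Wnt10b (0.0769), Nhs (0.0974), Kif5c (0.164), Pcdhb21 (0.191), the adhesion receptor gene Adgra1 (0.200) and Ank2 (0.230). Pnmal2 (0.287), Zcwpw1 (a histone methylation reader of meiosis, 0.301), Heca (0.321) and the lipid transfer gene Stard10 (0.321) came next. Apart from Tnnt1, Zfp583 and Engase, the sites with the largest rises were single-block. Of the 10 lower sites named here, 5 were single-block (Pcdhb21, Adgra1, Ank2, Pnmal2 and Heca).

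**Figure D5:**
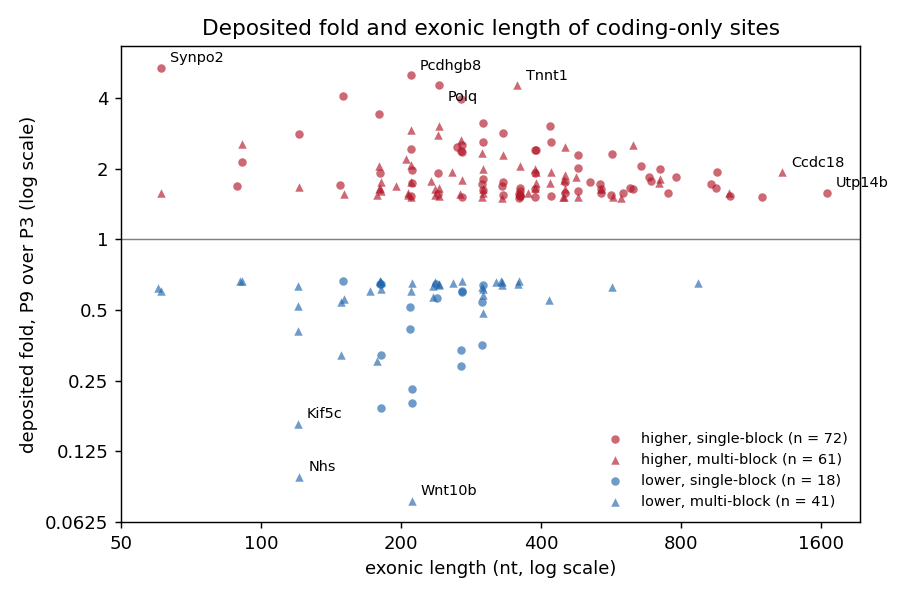
Deposited fold of P9 over P3 (y axis, log scale) against exonic length (x axis, nt, log scale) for 192 coding-only sites; circles are single-block and triangles multi-block sites, red is higher and blue lower in P9 MEFs, and no site lies near the grey line at 1 because the tables hold folds of at least 1.50 or at most 0.667. Synpo2 (61 nt) had the largest fold, 5.39, Wnt10b (211 nt) the smallest, 0.0769, and the longest site, Utp14b (1649 nt), had a fold of 1.58.

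The sites with the smallest p-values were not those with the largest folds. The smallest deposited p-values among higher sites were those of Erdr1 (7.24e-09, fold 2.79), Slc35a5 (8.13e-05, 1.91), Rbm4b (0.000479, 1.83), Adgrg6 (0.000955, 1.78) and Fam98b (0.00102, 1.55). Among lower sites they were those of Ldb2 (6.61e-06, fold 0.616), Lonp2 (0.000191, 0.538), Thop1 (0.000324, 0.625), Anln (0.000589, 0.577) and, tied, Nop16 (0.000933, 0.635) and Usp19 (0.000933, 0.656). Rbm4b is an RNA-binding protein, Adgrg6 an adhesion receptor, Lonp2 the peroxisomal Lon protease and Nop16 a nucleolar factor. The p-values of Wnt10b, Nhs and Kif5c were 0.0117, 0.0363 and 0.0398. The sources used here do not say whether the deposited p-values were adjusted. At most 0.001 were 4 of 133 higher sites (3.01%) and 6 of 59 lower sites (10.2%), and 3 of the 4 and all 6 were multi-block, against 45.9% and 69.5% of all higher and lower sites.

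Erdr1, the site with the smallest p-value, had 3 blocks totalling 240 nt that were spread over 30487 nt of chromosome Y (90785953 to 90816439). Copies of the Erdr1 locus in the region shared by the sex chromosomes are hard to tell apart by short reads, so its position is uncertain.

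Compared with sites in the other places of the transcript, coding-only sites crossed junctions far more often than those in the 3'UTR. Merged in the same way, 2 of 306 sites labelled 3'UTR alone were multi-block (0.654%, 0.0793 to 2.34), against 102 of 192 coding-only sites (53.1%, 45.8 to 60.3). The shares were 34.5% of 110 sites over coding sequence and 3'UTR, 70.7% of 41 over coding sequence and 5'UTR and 33.3% of 33 in the 5'UTR alone. How many exon junctions lie in each place was not measured, so these shares do not separate the peaks from the exon structure. Coding-only sites were higher in P9 MEFs less often (69.3%, 62.2 to 75.7) than 3'UTR sites (93.5%, 90.1 to 96.0) or sites over coding sequence and 3'UTR (87.3%, 79.6 to 92.9). They were higher more often than sites over coding sequence and 5'UTR (43.9%, 28.5 to 60.3) or in the 5'UTR alone (33.3% of 33). Their median exonic length of 299 nt was above the 210 nt of the 3'UTR sites and below the 360 nt of the sites over coding sequence and 3'UTR.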

How the data were processed

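The authors fragmented total RNA of P3 and P9 MEFs, precipitated it with an m6A antibody, prepared stranded libraries and sequenced paired ends. The build was mm10, and the sources used here name no aligner, peak caller or test. The deposited tables hold, for each peak and transcript, the position, exon blocks, transcript length and place, with a fold and a p-value of the authors' own comparison of P9 with P3. The fold is a linear ratio, deposited by the authors for each listed peak and not for each library. It was printed as deposited, with no test. Positions start at 1 here. Rows were merged into sites when blocks overlapped by at least 1 nt, and the row with the smallest p-value, as deposited, stood for its site. Shares have 95% Clopper-Pearson intervals and medians 95% binomial order intervals. Merging and intervals were checked on simulated data. The 12 libraries had no value of their own here.

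The sites and gene lists were chosen with earlier results of these data known. Genes were named for the paper's mention, the 10 largest folds per direction, up to 6 list members with the smallest p, several sites, the 5 extremes of blocks, length and transcript length, and the 5 smallest p per direction. Some genes within this rule are not reported here. Alternatives changed the unit counted, merging, thresholds and the transcript chosen. The motif share over all sites was not computed, because no genome was used. Python 3.11.15, pandas 2.3.3 and scipy 1.17.1 were used.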

Additional observations from a re-analysis of the deposited data

How the results depend on the processing

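Of 89 values recomputed under alternatives, 74 stayed within the interval of the main value or, for counts, within 1.5 times it, and 15 did not. Counting rows gave 217 higher and 91 lower in place of 133 and 59 sites. A deposited fold of at least 2 left 39 higher and 15 lower sites and lowered the multi-block share of lower sites from 69.5% to 46.7%. A deposited p-value of at most 0.01 left 31 higher and 22 lower sites, 58.5% of them higher, with a multi-block share of 35.5% among higher and 81.8% among lower sites, a difference of 46.3 percentage points in place of 23.6. A p-value of at most 0.001 left 4 higher and 6 lower sites, so that higher sites were no longer the majority (40.0%). With multi-block sites counted only where over 30 nt lay outside the largest block, an alternative chosen after seeing the data, the share of lower sites was 47.5%, the difference 9.11 percentage points (-6.73 to 24.9). With 2-fold changes the difference was 8.21 points (-22.3 to 38.9). In both, the interval of the difference includes 0, and the cause was not tested. Medians of length and fold stayed within their intervals under all alternatives run on them, but with the longest row of each site the lower multi-block median (235 nt) passed the single-block one (224.5 nt). No paired analysis was possible because the tables hold no value per library. Depth, and the peaks that missed the threshold, limit every share given here.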
